A study of Homo sapiens with 6 samples.

Results

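The RNA levels of 3 gene families of pre-mRNA splicing, the serine/arginine-rich (SR) proteins, the heterogeneous nuclear ribonucleoproteins (hnRNPs) and the CDC2-like kinases (CLKs), were examined in 2 human pancreatic ductal adenocarcinoma cell lines treated with inhibitors of retinoic acid receptor γ (RARγ). Members were chosen by symbol: SRSF followed by a number, HNRNP followed by a letter, or CLK1 to CLK4, without pseudogenes. This gave 42 of the 53826 gene entries measured, with 12 SR, 26 hnRNP and 4 CLK genes. In the study, PK-1 and Panc-1 cells were kept as controls or exposed for 24 h to either RARγi-1, which is LY2955303, or RARγi-2, which is MM11253, antagonists of RARγ with different chemical structures, to ask which genes respond to blocked RARγ signaling. RNA of each of the 6 conditions (PK-1 control, PK-1 RARγi-1, PK-1 RARγi-2, Panc-1 control, Panc-1 RARγi-1 and Panc-1 RARγi-2) was sequenced as 1 library. The libraries were assigned by their titles, since the treatment entry of both RARγi-2 libraries reads RARγi-1. Neither the doses of these cultures nor the vehicle of the controls is given, so the inhibitors are shown side by side and not compared with each other. Each cell line stands for a single tumour, and no genetic change was introduced into any group.

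SR proteins bind exonic enhancers through RNA recognition motifs and recruit the spliceosome through a domain of arginine-serine repeats. Many hnRNPs bind silencers and act against SR proteins, and they also coat, transport and stabilize RNA. The CLKs are nuclear kinases that phosphorylate the arginine-serine domain, which releases SR proteins from nuclear speckles to sites of splicing, while the SRPK kinases act on the same domain mainly in the cytoplasm. Most SR genes, and several hnRNP genes, limit their own protein by including an exon with an early stop codon or retaining an intron, and CLK transcripts with retained introns are stored in the nucleus and spliced on demand. Gene-level values add such transcripts to those that code for the full protein, so they do not separate them.

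Members were measured in TPM, the number of transcripts of a gene among a fixed total of transcripts, a level scaled for transcript length and library size. Of the 42 members, 37 had at least 5 TPM in at least 1 library and were analysed further, with 11 SR, 22 hnRNP and 4 CLK genes. HNRNPCL1, HNRNPCL2, HNRNPCL3 and HNRNPCL4 lay at the floor of the values, 1 TPM, in all 6 libraries, and SRSF12 lay there in all but Panc-1 RARγi-1, at 1.44 TPM. The rule also took in HNRNPUL2-BSCL2, a readthrough of neighbouring genes. Of 132 pseudogene entries left out, 1 reached 5 TPM. This was HNRNPA1P33, a copy of HNRNPA1, at 129, 89.5 and 60.9 TPM in PK-1 control, RARγi-1 and RARγi-2 and at the floor throughout Panc-1. Reads of HNRNPA1 may thus be split between copies. Adding both entries gave log2 fold changes of −0.64 and −1.09 in PK-1, against −0.65 and −1.09 for HNRNPA1 alone.

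A log2 fold change below compares (TPM + 1) after treatment with (TPM + 1) in the control of the same line, which understates the change of genes with low levels. With 1 library per condition a difference within a line could not be tested. A test over both lines was made with limma, a linear model with the treatment as factor and the cell line as block. It takes the 2 lines as the replicates of each inhibitor and leaves 2 residual degrees of freedom per gene. The variance of each gene was drawn toward a trend over all analysed entries. The SE and p-values thus borrow from other genes and do not rest on the 2 lines of that gene alone. As a yardstick within a line, the spread of a log2 fold change was taken from the difference between the treated libraries of that line over entries with at least 5 TPM in it (11268 for PK-1, 11056 for Panc-1). This spread was 0.41 in PK-1 and 0.32 in Panc-1. It includes real differences between the inhibitors and leaves out any variation of the control. TPM values keep no sequencing depth, so no counting interval is available. A TPM is a share of the RNA in a library, and fewer cells expressing a gene cannot be told apart from less of its RNA per cell.

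The libraries showed the keratins of an epithelial line, but their levels differed between conditions. KRT8 was at 5967, 3150 and 3779 TPM in PK-1 control, RARγi-1 and RARγi-2 and at 3530, 656 and 566 TPM in Panc-1. KRT19 was at 3711, 3446 and 2646 TPM in PK-1 and 1454, 247 and 157 TPM in Panc-1. The 5 epithelial markers had median log2 fold changes of −0.11, −0.49, −1.99 and −2.19 in PK-1 RARγi-1, PK-1 RARγi-2, Panc-1 RARγi-1 and Panc-1 RARγi-2. CDH1, the epithelial cadherin, was at the floor in every Panc-1 library but rose in PK-1, at 170, 270 and 385 TPM. EPCAM was at 578, 552 and 497 TPM in PK-1 and 13.4, 19.4 and 9.18 TPM in Panc-1. PTPRC, CD3E, PECAM1, VWF, DCN, LUM and PDGFRA, markers of leukocytes, endothelium and fibroblasts, were at the floor in all 6 libraries, whereas CD68, also found in lysosome-rich cells of other types, was at 19.8, 95.0 and 62.6 TPM in PK-1 and 244, 276 and 238 TPM in Panc-1. The part of these marker changes in the results on splicing genes was not tested. Among acinar markers CPA1 and CELA3A were at the floor in all libraries, and PRSS1 reached 21.2 TPM in PK-1 RARγi-2. The median log2 fold change of all 12412 entries with at least 5 TPM in some library was 0.13 in PK-1 RARγi-1, 0.00 in PK-1 RARγi-2, 0.05 in Panc-1 RARγi-1 and 0.00 in Panc-1 RARγi-2. Rescaling the libraries by median ratios would shift these fold changes by −0.11, 0.05, −0.09 and −0.00, so that values smaller in size than the shift may turn direction.

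SR and hnRNP RNAs were mostly lower in the treated cells, while CLK1 and CLK3 were higher. CLK4 was also higher, but mostly within the spread, and CLK2 had no common direction. The SR median log2 fold change was −0.44 in PK-1 RARγi-1, −0.38 in PK-1 RARγi-2, −0.41 in Panc-1 RARγi-1 and −0.33 in Panc-1 RARγi-2. The hnRNP median was −0.47, −0.82, −0.34 and −0.43 in the same order. The CLK median was 0.38, 0.59, 0.25 and 0.54, so that the CLK median stood above the SR median by 0.82, 0.97, 0.66 and 0.87 on the log2 scale. Of the 11 SR genes, 9 were below their control in each comparison, the others being SRSF5 and SRSF8. Of the 22 hnRNP genes, 20, 19, 18 and 19 were below control. Of all 12412 analysed entries, 4765, 5924, 5229 and 6117 were below control in the same order.

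**Figure D1:**
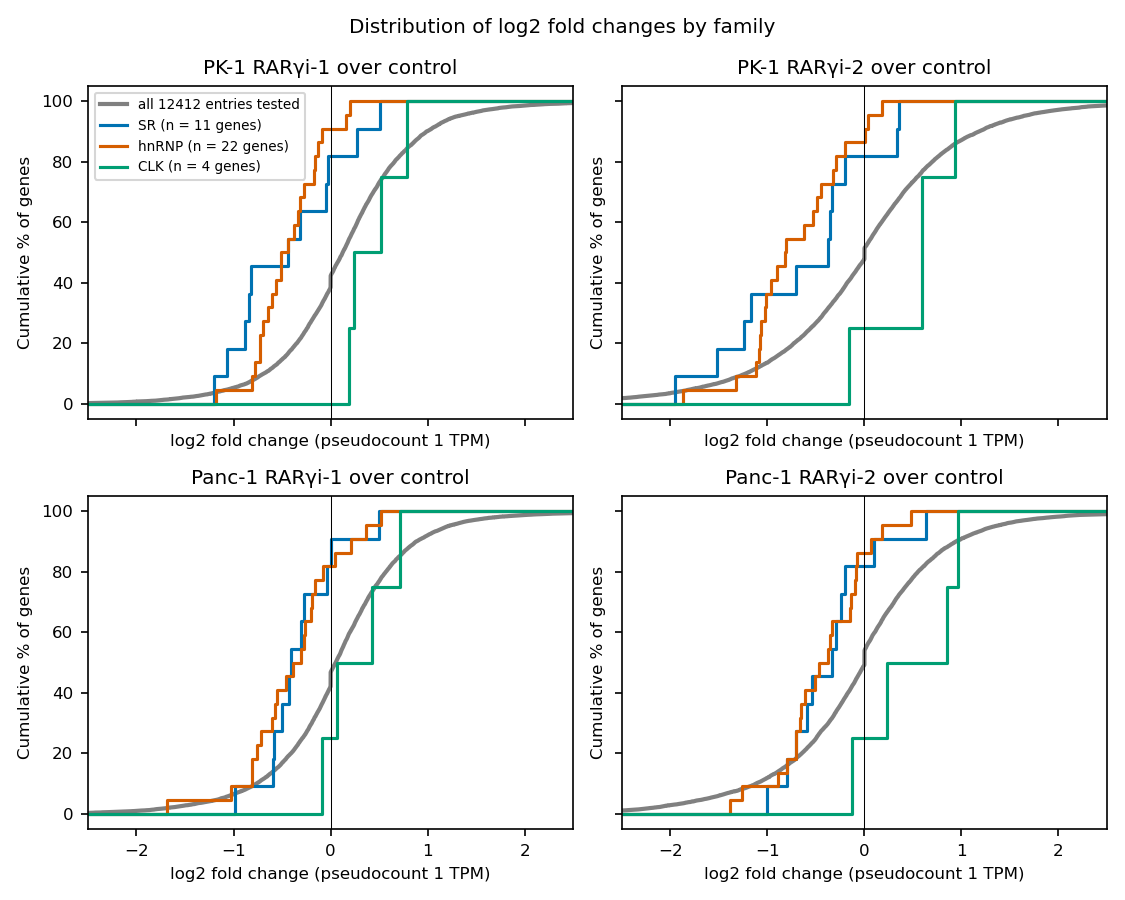
Cumulative share of genes (percent) against log2 fold change over control (pseudocount 1 TPM), in 1 panel per treated library. The SR curve (11 genes) and the hnRNP curve (22 genes) lie to the left of the grey curve of all 12412 entries over most of the range, and the CLK curve (4 genes) lies to its right for most of it.

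Few of these differences were large. In PK-1 RARγi-1, 3 of the 37 members were lower by over 2-fold, where 5.20% of all analysed entries were, and none was higher by over 2-fold, where 9.91% were. In PK-1 RARγi-2 the count was 12 lower against a background of 13.5%, and none higher against 12.9%. Panc-1 RARγi-1 had 2 members lower against 6.51% and none higher against 7.86%. Panc-1 RARγi-2 had 3 members lower against 12.0% and none higher against 9.02%. On the lower side the share of members was thus near the background in PK-1 RARγi-1 and both Panc-1 libraries, and above it in PK-1 RARγi-2, where 4 SR and 8 hnRNP genes were lower by over 2-fold. On the higher side it was 0 of 37 in each library, below the background. No CLK gene passed 2-fold in any library.

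At a limit of 1.5-fold the families stood further from the rest of the genes. In PK-1 RARγi-1, 13 members were lower against 12.3% of entries and 1 was higher against 23.0%. In PK-1 RARγi-2, 18 were lower against 24.0% and 3 higher against 23.7%. In Panc-1 RARγi-1, 9 were lower against 14.3% and 1 higher against 19.4%, and in Panc-1 RARγi-2, 13 were lower against 22.0% and 3 higher against 18.9%. All members higher by over 1.5-fold were CLK genes apart from SRSF8 in Panc-1 RARγi-2. At 3-fold no member was higher in any library, against 3.02%, 5.41%, 2.30% and 3.20% of entries in the order of libraries above. Lower by over 3-fold were none in PK-1 RARγi-1 (background 1.68%), SRSF7 and HNRNPAB in PK-1 RARγi-2 (6.14%), HNRNPM in Panc-1 RARγi-1 (2.40%) and none in Panc-1 RARγi-2 (5.37%). Of the 37 members, 21 and 24 differed from control by more than the spread in the PK-1 libraries, and 22 and 24 did so in Panc-1. The share of all entries past the spread was not counted, so these counts do not set the members apart from other genes.

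**Figure D2:**
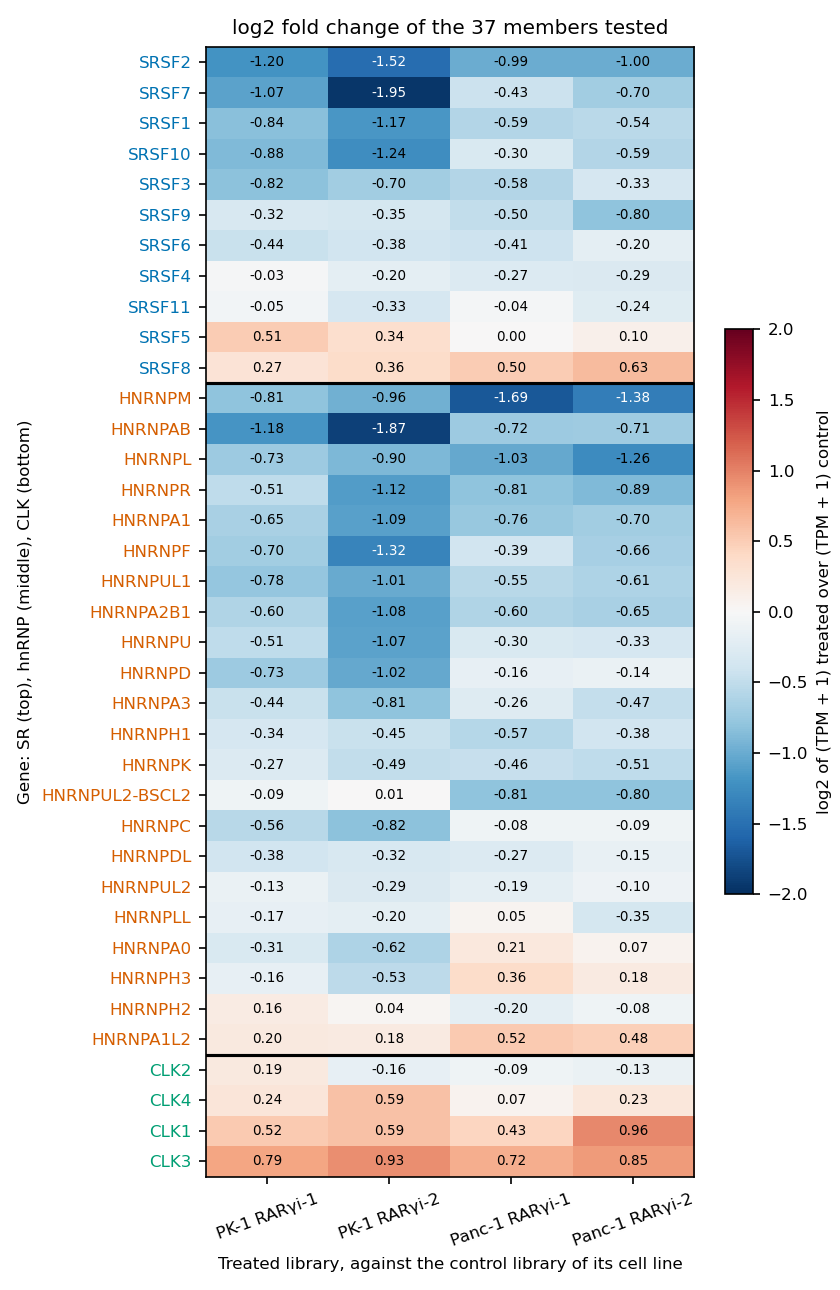
Log2 fold change (colour and number, pseudocount 1 TPM) of the 37 analysed members in each treated library over the control of its line, with rows ordered by family and by mean change. SRSF2 and HNRNPM head the lower ends of their families, CLK3 lies between 0.72 and 0.93 in all 4 libraries, and no cell passes 1 in the upward direction.

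The direction was the same in both lines for most members. With RARγi-1, 26 of 37 members were below control in both lines, among them 9 SR and 17 hnRNP genes, where 26.1% of all entries were, and 6 were above control in both, where 40.7% were. With RARγi-2, 27 were below in both, against 34.8%, and 6 were above, against 33.8%. The 6 genes above control in both lines included CLK1, CLK3 and CLK4 with each inhibitor, together with SRSF5, SRSF8 and HNRNPA1L2. In PK-1 RARγi-1 and Panc-1 RARγi-1, SRSF5 differed in size, at 0.51 and 0.00, and after rescaling its Panc-1 value had no upward direction. The CLK4 value in Panc-1 RARγi-1, 0.07, also had no upward direction after rescaling. Across the 37 members, the log2 fold changes of the lines, which have separate controls, had a Pearson correlation of 0.72 with RARγi-1 and 0.74 with RARγi-2 (Spearman 0.72 and 0.71), and over all analysed entries it was 0.56 and 0.62. These are descriptions across genes, which are not independent replicates.

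Over both lines, SRSF2 and HNRNPL fell with RARγi-1, at mean log2 fold changes of −1.10 ± 0.18 (SE, 2 lines, adjusted p = 0.044) and −0.88 ± 0.15 (adjusted p = 0.048) in the limma fit with the line as block and Benjamini-Hochberg adjustment over all 12412 entries. These were 2 of the 37 members against 1.55% of all entries, and no member rose, against 3.46%. With RARγi-2, 13 members fell, against 11.7% of entries. They were SRSF1, SRSF2, SRSF7 and SRSF10 of the SR genes and HNRNPA1, HNRNPA2B1, HNRNPA3, HNRNPAB, HNRNPF, HNRNPL, HNRNPM, HNRNPR and HNRNPUL1 of the hnRNP genes. CLK1 (mean log2 fold change 0.77 ± 0.19, limma adjusted p = 0.041) and CLK3 (0.89 ± 0.15, limma adjusted p = 0.019) rose with RARγi-2, which makes 2 members against 11.2% of entries. With RARγi-1, CLK3 had 0.75 ± 0.15 (limma adjusted p = 0.055) and CLK1 0.47 ± 0.19 (limma adjusted p = 0.18), which miss the limit of 0.05. At an unadjusted p under 0.05 in the limma fit, 15 members were lower and 1 was higher with RARγi-1, and 18 were lower and 3 higher with RARγi-2, against 9.88%, 18.6%, 20.2% and 18.9% of entries. Both inhibitors share the controls and 1 estimate of the spread in this fit.

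**Figure D3:**
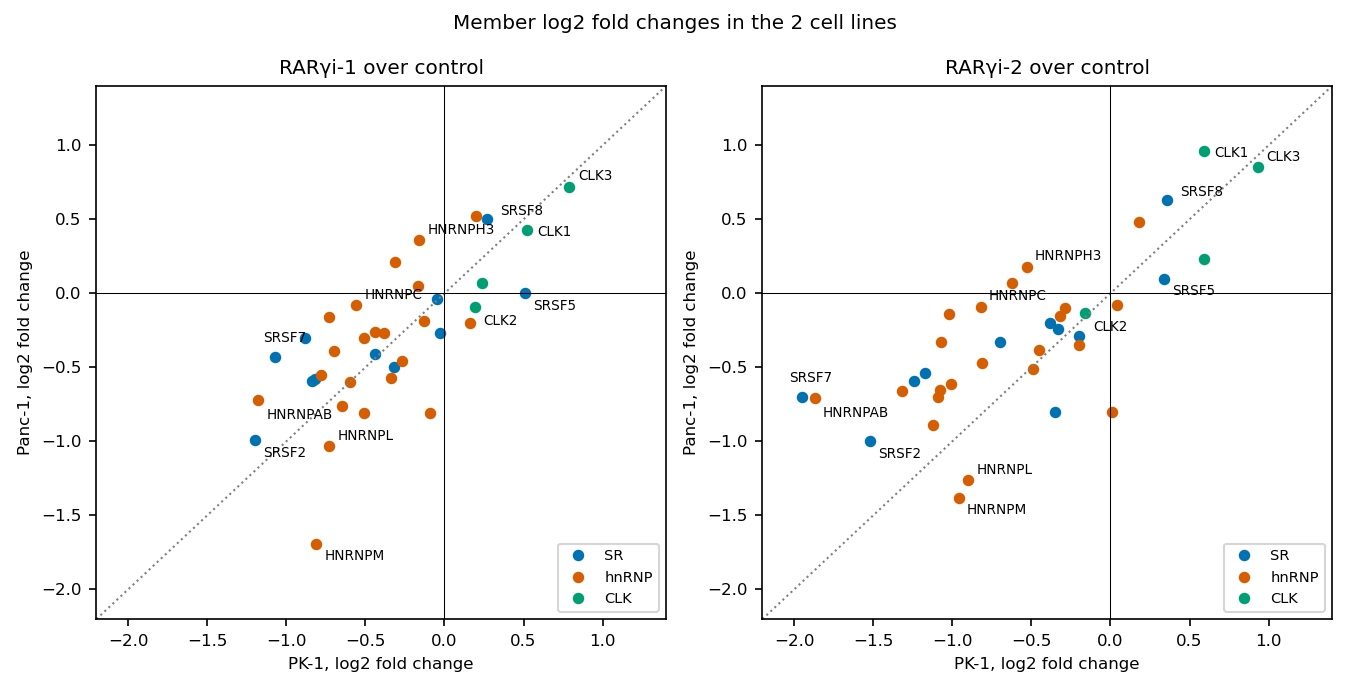
Log2 fold change of each of the 37 members in PK-1 (horizontal) against Panc-1 (vertical), for RARγi-1 (left) and RARγi-2 (right), with the dotted line marking equal values. CLK1 and CLK3 sit in the upper right, most SR and hnRNP genes in the lower left, SRSF7 and HNRNPAB above the line (lower in PK-1 than in Panc-1) and HNRNPM below it.

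Promoter sequence was compared between the families because most hnRNP genes, and most SR genes as well, differed from control in the same direction. Whether a motif goes with the changes was not tested. RefSeq promoters on GRCh38.p14 were found for 35 of the 37 analysed members (not for HNRNPA1 and SRSF2), and the 250 bases before each listed start were searched on both strands for the letters of 4 promoter motifs. The CCAAT box was searched as CCAAT and was present at 17 of 21 hnRNP genes, 2 of 10 SR genes and 1 of 4 CLK genes, while 41.4% of the 9786 analysed genes in the table and 37.0% of all 27305 genes held it. Genes with several listed starts offer more sequence, and by single start it was present in 19 of 32 hnRNP windows, 3 of 13 SR windows and 1 of 6 CLK windows, against 33.2% of 14065 windows of analysed genes. The GC box, searched as GGGCGG, was present at 18 of 21 hnRNP, 3 of 10 SR and 4 of 4 CLK genes, against 75.6% of analysed and 46.2% of all genes. The TATA box, searched as TATAAA, was present at 3 of 21 hnRNP, 3 of 10 SR and 0 of 4 CLK genes, against 7.83% of analysed and 13.0% of all genes. The E box, searched as CACGTG, was present at 6 of 21 hnRNP, 0 of 10 SR and 2 of 4 CLK genes, against 11.3% of analysed and 7.73% of all genes. None of these motifs holds another, though matches on opposite strands can overlap. Windows that lie in annotated exons were counted too, such as those of SRSF1 and HNRNPM (all 250 bases) and SRSF7 (211 bases). HNRNPUL2 and its readthrough HNRNPUL2-BSCL2 were counted as separate genes. The part of exon sequence or shared sequence in these counts was not tested. A match is a run of letters and not a shown binding site, and no match says only that these letters are not in the window.

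Shown here are 3 hnRNP promoters with CCAAT from genes that were past 2-fold in some library, the promoter of SRSF8, the SR gene whose treated libraries were all above both controls, and those of CLK1, CLK2 and CLK3. They were picked after the values were seen, and the stretches end at the RefSeq start or where an annotated exon begins, so those of genes whose windows lie mainly in exons (SRSF7, SRSF1, HNRNPM and the second CLK3 window among them) are not shown. The first CLK3 window, with 95 of 250 bases in exons, is shown because CLK3 had the highest mean change of the CLK genes. Each is 5′ to 3′ on the strand of the gene, with matches to any of the 4 motifs in capitals on either strand (ATTGG and CCGCCC are the reverse complements of CCAAT and GGGCGG). The coordinates are chr19:38852348-38852467 (HNRNPL, minus strand), chr5:178204387-178204506 (HNRNPAB, plus), chr10:43408883-43409002 (HNRNPF, minus), chr11:95066757-95066876 (SRSF8, plus), chr2:200864745-200864864 (CLK1, minus), chr1:155273517-155273636 (CLK2, minus) and chr15:74608157-74608276 (CLK3, plus). Which start the cells used is not known from these files. The RefSeq start of SRSF8 did not match a transcript start of GENCODE 29, in which the gene begins at chr11:95067197. For the other genes shown, the sequence around the RefSeq start overlapped the first bases of some GENCODE 29 transcript. This does not show that both starts are the same base.
HNRNPL: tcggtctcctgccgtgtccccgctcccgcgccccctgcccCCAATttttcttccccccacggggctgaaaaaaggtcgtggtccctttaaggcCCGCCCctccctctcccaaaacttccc
HNRNPAB: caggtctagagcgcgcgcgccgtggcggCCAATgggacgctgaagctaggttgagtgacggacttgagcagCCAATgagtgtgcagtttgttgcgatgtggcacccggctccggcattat
HNRNPF: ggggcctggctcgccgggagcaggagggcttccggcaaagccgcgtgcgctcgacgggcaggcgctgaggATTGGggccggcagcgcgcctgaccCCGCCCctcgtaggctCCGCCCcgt
SRSF8: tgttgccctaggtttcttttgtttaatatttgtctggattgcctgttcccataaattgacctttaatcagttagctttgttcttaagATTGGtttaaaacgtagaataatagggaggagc
CLK1: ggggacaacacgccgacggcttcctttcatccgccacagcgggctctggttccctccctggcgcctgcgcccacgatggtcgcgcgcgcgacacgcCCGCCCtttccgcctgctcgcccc
CLK2: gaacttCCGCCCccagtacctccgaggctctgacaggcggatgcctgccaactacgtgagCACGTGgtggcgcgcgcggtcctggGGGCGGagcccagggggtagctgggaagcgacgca
CLK3: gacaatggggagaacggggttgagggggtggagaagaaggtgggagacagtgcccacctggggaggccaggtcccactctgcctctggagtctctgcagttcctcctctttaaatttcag
HNRNPAB carries CCAAT at both -118 and -75, counted back from its RefSeq start, and HNRNPL carries it once at -80. CLK2 carries an E box between GC boxes, and CLK1 carries a GC box in the stretch shown, while that of CLK3 holds none of the 4 motifs. The stretches of CLK2, CLK3 and HNRNPF lie within their genes as annotated in GENCODE 29, and that of CLK3 ends 95 bases before the RefSeq start. The CLK3 stretch does not stand for all CLK3 windows, since the searched windows of all 4 CLK genes, CLK3 included, held a GC box.

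The CLK genes encode the nuclear kinases of the SR proteins. CLK3, on chromosome 15 (chr15:74598500-74645414, plus strand, GENCODE 29 on GRCh38), was at 35.4 TPM in PK-1 control, 61.8 in PK-1 RARγi-1 and 68.6 in PK-1 RARγi-2, and at 30.2, 50.4 and 55.2 TPM in the Panc-1 libraries. All 4 treated libraries lay above both controls, and each was 1.65-fold to 1.91-fold above the control of its own line. CLK1 (chr2:200853009-200864744, minus strand) was at 34.6, 50 and 52.6 TPM in PK-1 and at 22.7, 30.8 and 44.9 TPM in Panc-1. Each treated library was above its own control, with log2 fold changes of 0.52, 0.59, 0.43 and 0.96, but the Panc-1 RARγi-1 value lay below the PK-1 control. CLK4 was the lowest of the family, at 8.36, 10 and 13.0 TPM in PK-1 and 9.91, 10.5 and 11.8 TPM in Panc-1. Its treated libraries were all above both controls, yet only by 0.07 to 0.59 on the log2 scale, and the low Panc-1 RARγi-1 value of 0.07 turned direction on rescaling, after which that library no longer lay above its control. Only the CLK4 value in PK-1 RARγi-2 passed the spread. CLK2 stood apart from its paralogues at 29.3, 33.6 and 26.0 TPM in PK-1 and 36.6, 34.4 and 33.3 TPM in Panc-1. Its log2 fold changes of 0.19, −0.16, −0.09 and −0.13 were all within the spread.

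Summed over the family, CLK RNA was 108, 155 and 160 TPM in PK-1 and 99.3, 126 and 145 TPM in Panc-1. Set against the summed SR RNA, CLK RNA amounted to 5.98% of it in PK-1 control, 11.6% in RARγi-1 and 13.2% in RARγi-2, and to 5.61%, 9.82% and 11.6% in the Panc-1 libraries. The controls of both lines thus had similar ratios, and all 4 treated libraries were higher. The ratio concerns RNA only, and neither kinase activity nor SR phosphorylation was measured in these files.

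**Figure D4:**
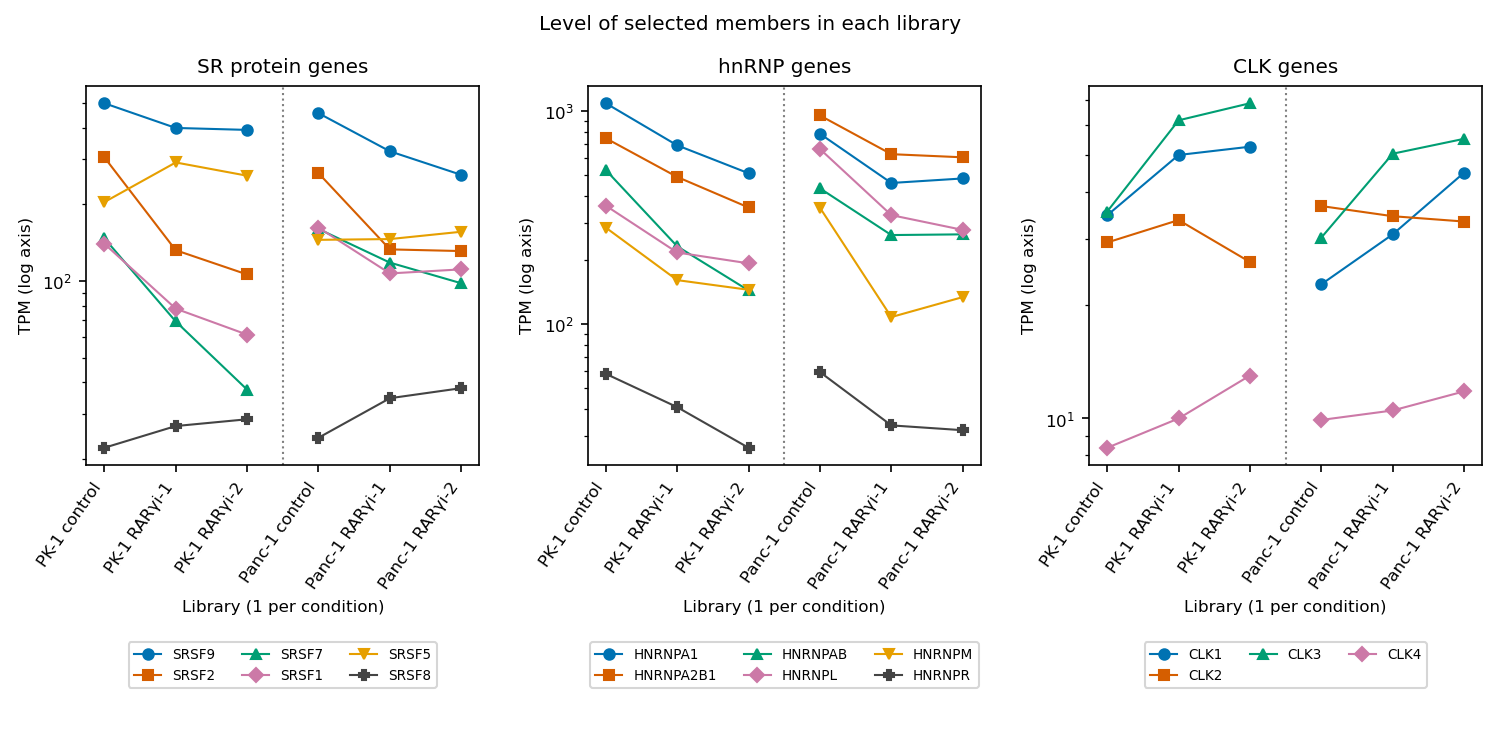
Level in TPM (log axis) of 6 SR, 6 hnRNP and the 4 CLK genes in each of the 6 libraries, with 1 point per library and thin lines that join the libraries of a cell line only to guide the eye. CLK1, CLK3, CLK4 and SRSF8 lie higher in the treated libraries than in the control of their line, SRSF9, SRSF2, SRSF7, SRSF1 and the 6 hnRNP genes lie lower, and CLK2 shows no common direction.

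Among the SR proteins, SRSF2 (SC35), which marks nuclear speckles, was the lowest against control when the 4 comparisons were averaged. Its gene lies at chr17:76734115-76737374 on the minus strand. SRSF2 RNA was at 306 TPM in PK-1 control, 132 in RARγi-1 and 106 in RARγi-2, and at 265, 133 and 131 TPM in Panc-1. The treated libraries lay 1.99-fold to 2.88-fold below their controls, with a wide gap between the groups. SRSF8, a processed copy of SRSF2 that became a gene of its own, went the other way, at 22.1, 26.9 and 28.6 TPM in PK-1 and 24.2, 34.6 and 37.9 TPM in Panc-1. All its treated libraries were above both controls, with log2 fold changes of 0.27, 0.36, 0.50 and 0.63, of which only the Panc-1 values pass the spread. The sum of both genes was 328, 159 and 134 TPM in PK-1 and 289, 167 and 169 TPM in Panc-1, and so followed SRSF2.

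SRSF7, a zinc-knuckle SR protein that also acts in mRNA export, showed the largest single difference of all members. SRSF7 (chr2:38743599-38751494, minus strand) was at 147, 69.3 and 37.4 TPM in PK-1 and at 160, 118 and 97.9 TPM in Panc-1. In PK-1 RARγi-2 it was 3.85-fold below control, while in Panc-1 the differences were 1.35-fold and 1.63-fold. The log2 fold change was higher in Panc-1 than in PK-1 by 0.64 with RARγi-1 and by 1.24 with RARγi-2, and this difference between lines was not tested. SRSF3, the smallest SR protein and the closest relative of SRSF7, was at 193, 108 and 118 TPM in PK-1 and 236, 157 and 188 TPM in Panc-1. Its treated libraries were all below both controls, with log2 fold changes from −0.82 to −0.33.

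SRSF1 (ASF/SF2), a general splicing factor and a known oncoprotein, was at 140, 77.8 and 61.5 TPM in PK-1 and 162, 107 and 111 TPM in Panc-1. The 4 treated libraries were all below both controls, and the difference was 2.25-fold in PK-1 RARγi-2 and 1.45-fold in Panc-1 RARγi-2. Its paralogue SRSF9 had the highest level of the family, at 499, 399 and 392 TPM in PK-1 and 456, 323 and 261 TPM in Panc-1. It made up 27.7%, 29.8% and 32.2% of SR RNA in the PK-1 libraries and 25.7%, 25.2% and 20.9% in those of Panc-1. SRSF9 differed less in PK-1, where its log2 fold changes of −0.32 and −0.35 were within the spread, than in Panc-1, at −0.50 and −0.80. SRSF10, which acts as a repressor when it is dephosphorylated, was at 36.0, 19.1 and 14.6 TPM in PK-1 and 33.3, 26.9 and 21.7 TPM in Panc-1. All treated values were below both controls, and PK-1 RARγi-2 was 2.36-fold lower.

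The group of SRSF4, SRSF5 and SRSF6, longer SR proteins with a pair of RNA recognition motifs, had no member past 1.5-fold in any library. SRSF5, known to be induced by insulin, was at 204, 292 and 259 TPM in PK-1 and 145, 146 and 156 TPM in Panc-1. For SRSF5 the value in PK-1 RARγi-1, a log2 fold change of 0.51, passed the spread. SRSF6 was at 136, 99.7 and 104 TPM in PK-1 and 117, 87.8 and 101 TPM in Panc-1, with all treated libraries below both controls. Its log2 fold changes were −0.44, −0.38, −0.41 and −0.20, of which the RARγi-1 values passed the spread in both lines, and those of SRSF4 ran from −0.29 to −0.03. The sum of the group was 405, 455 and 420 TPM in PK-1 and 382, 333 and 355 TPM in Panc-1, in contrast to SRSF3 and SRSF7, which together had 340, 178 and 155 TPM in PK-1 and 396, 276 and 286 TPM in Panc-1. SRSF11, a more distant member, had log2 fold changes between −0.33 and −0.04.

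The hnRNP genes were expressed at higher levels than the SR genes, and their sum was 6258, 4188 and 3327 TPM in PK-1 and 6404, 4523 and 4414 TPM in Panc-1. As a share of all RNA measured this was 0.627%, 0.419% and 0.333% in PK-1, and in Panc-1 it was 0.641%, 0.453% and 0.442%. The SR sum was 1799, 1337 and 1218 TPM in PK-1 and 1771, 1283 and 1248 TPM in Panc-1. The log2 ratio of the sums to control was −0.58, −0.91, −0.50 and −0.54 for hnRNPs and −0.43, −0.56, −0.46 and −0.50 for SR genes. The hnRNP median stood below the SR median by 0.44 on the log2 scale in PK-1 RARγi-2 (difference −0.44) and within 0.10 of it in the other 3 libraries.

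The core hnRNPs of the A, B and C groups package nascent RNA. HNRNPA1, which antagonizes SRSF1 at many exons, was at 1089, 691 and 511 TPM in PK-1 and 783, 460 and 483 TPM in Panc-1. HNRNPA2B1 was at 746, 491 and 353 TPM in PK-1 and 954, 628 and 607 TPM in Panc-1. Both genes had every treated library below both controls, and each was over 2-fold lower in PK-1 RARγi-2 alone, by 2.13-fold and 2.11-fold. HNRNPC, whose protein masks cryptic exons in Alu elements, was lower in PK-1 (375, 254 and 212 TPM) and nearly level in Panc-1 (489, 462 and 460 TPM).

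HNRNPAB, a relative of the AUF1 protein, lies at chr5:178204507-178211163 on the plus strand. It was at 529, 232 and 144 TPM in PK-1 and 434, 262 and 264 TPM in Panc-1. PK-1 RARγi-2 was 3.65-fold below control, and the treated libraries of both lines lay below both controls. HNRNPD (AUF1), which directs decay of mRNAs with AU-rich elements, was at 322, 193 and 158 TPM in PK-1 and 296, 265 and 269 TPM in Panc-1. The difference was past the spread in PK-1 only, at log2 fold changes of −0.73 and −1.02 against −0.16 and −0.14 in Panc-1, and whether the lines differ was not tested.

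HNRNPM, known to promote a mesenchymal splicing program against the epithelial regulator ESRP1, was the lowest hnRNP on average over the 4 comparisons. HNRNPM (chr19:8444767-8489114, plus strand) was at 284, 161 and 145 TPM in PK-1 and 352, 108 and 134 TPM in Panc-1. Panc-1 RARγi-1 was 3.24-fold and Panc-1 RARγi-2 2.61-fold below control, compared with 1.76-fold and 1.95-fold in PK-1. ESRP1 itself, a member of the list of other splicing regulators, was at 107, 218 and 304 TPM in PK-1 and at the floor throughout Panc-1. HNRNPL, a binder of CA-rich RNA, lies at chr19:38836388-38852347 on the minus strand and was at 360, 217 and 193 TPM in PK-1 and 664, 325 and 277 TPM in Panc-1. Like HNRNPM it was past 2-fold in both Panc-1 libraries (2.04-fold and 2.40-fold lower) and in neither PK-1 library.

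HNRNPF, a binder of G-rich RNA, was at 369, 227 and 147 TPM in PK-1 and 311, 238 and 197 TPM in Panc-1. HNRNPU, a scaffold protein of nuclear matrix and chromatin, was at 188, 131 and 89.3 TPM in PK-1 and 241, 196 and 191 TPM in Panc-1. Both passed 2-fold in PK-1 RARγi-2 only, at 2.49-fold and 2.09-fold lower. HNRNPR was at 58.5, 40.8 and 26.3 TPM in PK-1 and 59.6, 33.5 and 31.8 TPM in Panc-1, and HNRNPUL1, which acts in the response to DNA breaks, was at 190, 110 and 94.0 TPM in PK-1 and 126, 85.7 and 82.1 TPM in Panc-1. Every treated library of HNRNPR, HNRNPUL1 and HNRNPF lay below both controls. HNRNPK, a poly(C)-binding protein, had the third highest mean level of the family and a smaller difference, at 590, 490 and 419 TPM in PK-1 and 477, 347 and 336 TPM in Panc-1, with the PK-1 RARγi-1 value above the Panc-1 control.

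HNRNPA1L2, an intronless copy of HNRNPA1 that may share its reads, had the highest mean change of the hnRNPs. It was at only 12.2, 14.1 and 14.0 TPM in PK-1 and 5.77, 8.72 and 8.43 TPM in Panc-1. The remaining hnRNPs had log2 fold changes between −0.81 and 0.36. HNRNPA3 and HNRNPH1 were below both controls in all treated libraries, as was HNRNPDL. HNRNPUL2, HNRNPH2 and HNRNPLL stayed within 0.35 of control on the log2 scale in every library. HNRNPUL2-BSCL2, which shares its exons with HNRNPUL2 and BSCL2, was at 8.90, 8.29 and 9.0 TPM in PK-1 and 24.1, 13.3 and 13.4 TPM in Panc-1.

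The controls of the lines had similar levels of these genes. Only HNRNPUL2-BSCL2 of the 37 members differed by over 2-fold between Panc-1 and PK-1 controls, with a log2 ratio of 1.34, whereas 33.4% of all analysed entries did. Next came HNRNPA1L2 (−0.96, lower in Panc-1), HNRNPL (0.88), SRSF4 (0.87) and HNRNPUL2 (0.82). All 4 treated libraries were below both controls for 20 members, 8 SR and 12 hnRNP genes, where this held for 10.8% of entries. They were above both for SRSF8, CLK3 and, before rescaling, CLK4, where this held for 14.2%. Among the 8270 entries with controls within 2-fold of each other, 36 of the members included, the shares were 15.2% below and 19.9% above.

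Other splicing genes were taken from 8 lists. Sm and LSm proteins, which form the ring around spliceosomal snRNAs, had medians of −0.72, −1.13, −0.49 and −0.67 (15 genes), with 10 genes lower by over 2-fold in PK-1 RARγi-2. SNRPD1 was the lowest on average, at 113, 67.0 and 35.5 TPM in PK-1 and 186, 99.1 and 82.9 TPM in Panc-1, and SNRPN was the highest, with log2 fold changes of 0.45, 0.13, 0.79 and 0.49. Other proteins of the hnRNP class had medians of −0.51, −0.78, −0.43 and −0.52 (20 of 21 genes analysed), close to the HNRNP genes. SFPQ, a paraspeckle protein, had log2 fold changes of −0.68, −1.17, −1.45 and −0.96, and CIRBP, the cold-inducible RNA-binding protein, had 0.14, 0.65, 1.18 and 1.23. The sequence of list medians thus placed Sm and LSm proteins furthest below control in each library.

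Proteins of the U1 and U2 snRNPs and U2AF had medians of −0.40, −0.61, −0.23 and −0.26 (21 genes), from DDX39A, an export helicase and the lowest on average (−1.33, −1.67, −1.10 and −0.54), to SF3B5 (0.53, 0.68, 0.41 and 0.90). Proteins of the tri-snRNP and the catalytic steps had medians of −0.28, −0.47, −0.10 and −0.12 (28 genes), from PPIH (−1.19, −1.67, −0.73 and −0.69) to BCAS2 (0.12, 0.18, 0.88 and 0.95). SR-related factors had medians of −0.25, −0.46, −0.11 and −0.15 (26 genes). In that list PNN, a speckle protein, was the lowest, at −0.35, −1.14, −0.25 and −0.57, and RBM39 the highest, at 0.40, 0.78, 0.59 and 1.09. The other alternative splicing regulators had medians of 0.06 (−0.04 after rescaling), −0.21, −0.23 and −0.30 (19 of 23 genes), and MBNL1 was the lowest, at −0.61, −0.77, −0.65 and −0.82.

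Kinases, phosphatases and the importer of SR proteins had medians of −0.09, −0.05, 0.23 and −0.01 (10 of 11 genes analysed). The 6 kinases analysed of this list had medians of −0.03, −0.39, 0.41 and 0.01, beside 0.38, 0.59, 0.25 and 0.54 for the CLK genes. DYRK1B, a kinase related to the CLKs, was the highest, at 5.38, 19.4 and 27.1 TPM in PK-1 and 125, 218 and 288 TPM in Panc-1. PPP1CC, a catalytic subunit of protein phosphatase 1, which dephosphorylates SR proteins, was the lowest, at 258, 129 and 102 TPM in PK-1 and 243, 125 and 104 TPM in Panc-1. SRPK1, the main cytoplasmic SR kinase, was also below control, at 42.7, 33.1 and 17.7 TPM in PK-1 and 71.7, 51.0 and 35.9 TPM in Panc-1. Genes of nonsense-mediated decay and the exon junction complex had medians of −0.09, −0.28, 0.17 and 0.06 (16 genes), from EIF4A3 (−0.48, −0.85, −0.46 and −0.37) to SMG6 (0.36, 0.42, 0.69 and 0.75).

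**Figure D5:**
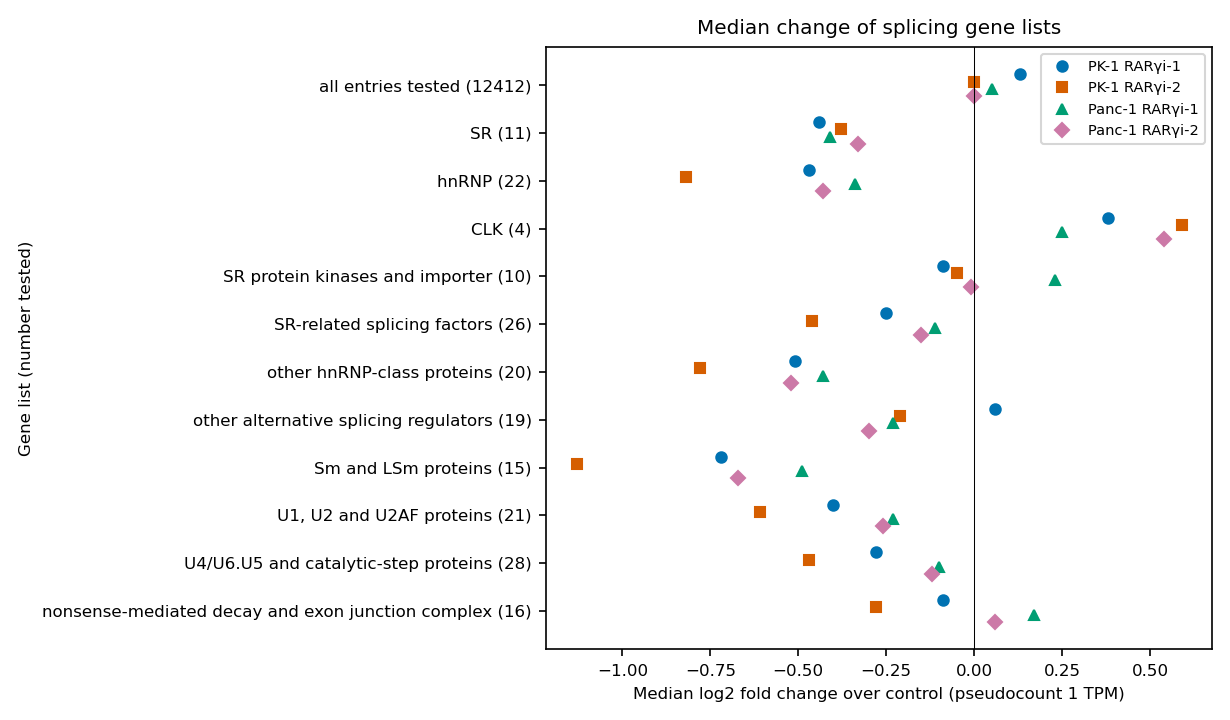
Median log2 fold change over control (pseudocount 1 TPM) of each splicing gene list, with 1 symbol per treated library and the number of analysed genes in brackets. The Sm and LSm list lies furthest to the left, at −0.49 to −1.13, and the CLK genes are the 1 list to the right of zero by 0.25 or more in all 4 libraries.

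Other gene groups also differed from control in the same treated libraries. All 14 proliferation genes examined, such as MKI67 and the MCM genes, were lower by over 2-fold in each treated library, with medians of −2.07, −3.54, −2.10 and −2.63. Targets of the stress factors ATF4 and CHOP had medians of 2.44, 2.96, 2.74 and 3.21, with 9, 9, 8 and 8 of 10 genes higher by over 2-fold, and heat shock chaperones had −0.12, −0.15, 0.07 and 0.49 (11 genes). The keratins among the epithelial markers were lower as well, most in Panc-1, while CDH1 was higher in the treated PK-1 libraries, as given above. The part of proliferation, stress or epithelial state in the changes of the splicing genes was not tested.

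Annotated transcripts show how much a gene-level value may combine. In GENCODE 29, all 11 analysed SR genes (100%) have at least 1 transcript marked for nonsense-mediated decay, compared with 14 of 22 hnRNP genes (63.6%), 3 of 4 CLK genes (75.0%) and 43.5% of the 11404 analysed protein-coding genes. SRSF7 has 6 such transcripts of 12 and HNRNPU has 9 of 31. Retained-intron transcripts are listed for 8 SR genes (72.7%), 14 hnRNP genes (63.6%), 3 CLK genes (75.0%) and 58.5% of the analysed genes, with 8 of 15 transcripts at CLK1 and 8 of 27 at CLK3. CLK2 and HNRNPF have none of either kind among 7 transcripts each. Whether the annotated kinds of transcript go with the changes was not tested. Gene-level values therefore did not measure the protein-coding output of the members. Exons of 8 analysed members overlap a coding gene on the opposite strand, namely CLK3 (EDC3), HNRNPA2B1 (CBX3), HNRNPAB (PHYKPL), HNRNPH3 (RUFY2), HNRNPU (COX20), HNRNPUL1 (TGFB1), SRSF2 (MFSD11) and SRSF9 (GATC). The libraries were stranded, but whether strand was used in counting is not given in the sources used here.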

How the data were processed

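RNA of 6 cultures of PK-1 and Panc-1 was sequenced from stranded mRNA libraries (TruSeq). The authors deposited log2 values of TPM per gene and library, with values under 1 TPM raised to 1 TPM (74.6% to 75.6% of entries per library). The submitters' processing notes name hg38; aligner, counting and annotation are not given in the sources used here. The deposited log2 values were turned into TPM with pandas 2.3.3 and numpy 2.4.6. Log2 fold changes used a pseudocount of 1 TPM, and an entry was analysed if some library had 5 TPM or more of it. The spread was taken from the median absolute deviation (times 1.4826) of RARγi-2 minus RARγi-1 within a line. Both lines were tested together with limma 3.58.1 in R 4.3.3 on log2(TPM + 1), with cell line and treatment as factors, a trended prior and Benjamini-Hochberg adjustment over all analysed entries. This fit was added after the data were seen, as was the share among entries with controls within 2-fold. The calculations were tested on simulated data. No library was left out.

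The members and lists were chosen with earlier results of these data known. Members described with all values are those past 2-fold in a comparison, the 3 with the highest mean TPM and those with the highest and lowest mean change of each family, and all CLK genes (23 in all). Of each other list the genes with the highest and lowest mean change were named. SRSF3, SRSF4, SRSF6, SRSF11, SRPK1, HNRNPC, the markers and the other hnRNP genes outside the 23 were named after their values were seen, as were the promoters printed. Gene positions are from GENCODE 29 and promoters from RefSeq (GRCh38.p14). Pseudocounts of 0, 0.1 and 5 TPM, minima of 1 and 50 TPM, limits of 1.5-fold and 3-fold, rescaled libraries, summed families and other member sets were tried as alternatives.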

Additional observations from a re-analysis of the deposited data

Results flagged for a closer look

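In 3 hnRNP genes both treated libraries of PK-1 differed from control in 1 direction and both of Panc-1 in the other. HNRNPA0 had log2 fold changes of −0.31 with RARγi-1 and −0.62 with RARγi-2 in PK-1, against 0.21 and 0.07 in Panc-1. For HNRNPH3 they were −0.16 and −0.53 in PK-1, against 0.36 and 0.18 in Panc-1. HNRNPH2 had 0.16 and 0.04 in PK-1, against −0.20 and −0.08 in Panc-1, all within the spread. The median of the list of nonsense-mediated decay and exon junction complex genes was −0.09 and −0.28 in PK-1, against 0.17 and 0.06 in Panc-1. The difference between lines was not tested, and both treated libraries of a line share 1 control. Opposite directions of this kind were seen in 3 of 37 members and in 12.0% of the 12412 analysed entries.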

How the results depend on the processing

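The medians of the SR and hnRNP genes stayed below 0, and those of the CLK genes above 0, in each comparison under the alternatives run, with ranges over the 4 comparisons of −0.56 to −0.31 for SR, −0.93 to −0.30 for hnRNP and 0.16 to 0.90 for CLK genes. With a minimum of 50 TPM, where only CLK1 and CLK3 remain of the CLK genes, the CLK median in Panc-1 was 0.57 (RARγi-1) and 0.90 (RARγi-2), and it exceeded the SR median by 1.0 and 1.23. The same minimum gave the list of SR kinases and importer a median of −0.11 in Panc-1 RARγi-1 (0.23 at 5 TPM), and the nonsense-mediated decay list −0.17 in Panc-1 RARγi-1 and −0.23 in Panc-1 RARγi-2 (0.17 and 0.06 at 5 TPM), with fewer genes in each list. At a limit of 1.5-fold, 13 members were lower in PK-1 RARγi-1, 9 in Panc-1 RARγi-1 and 13 in Panc-1 RARγi-2, and 1, 3, 1 and 3 were higher in the 4 comparisons. At 3-fold, 0, 2, 1 and 0 were lower. In all, 358 recomputed values of families, lists and counts stayed near their first value, 16 moved and 2 reversed, where medians under 0.1 in size were not given a direction. The 536 recomputed values of single genes moved by less than the spread, and 2 of them changed sign, both in Panc-1 RARγi-1 on rescaling (CLK4 from 0.07 to −0.01 and SRSF5 from 0.00 to −0.08). Rescaling left the counts of members called by limma at 2 and 0 with RARγi-1 and at 13 and 2 with RARγi-2 (lower and higher). No replicate of a condition could be left out. The limma fit paired the libraries by cell line. Depth is unknown, which limits low genes such as CLK4 most.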
